A study of Mus musculus with 4 samples.

Results

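The 10 genes described here are Ciita and the MHC class II presentation genes H2-Aa, H2-Ab1, H2-Eb1, Cd74, H2-DMa, H2-DMb1, H2-DMb2, H2-Oa, and H2-Ob. They were found by symbol among the 31053 genes of the feature table, and all 10 were present. The study compared regulatory B cells (Bregs) made from purified splenic B cells of WT mice. According to its methods, the mice were C57BL/6 and 6 to 12 weeks old. Bregs-CpG were kept for 3 days with the Toll-like receptor 9 ligand CpG B ODN 1668 at 10 μg/mL. Bregs-TLR had the same culture and also received LPS at 10 μg/mL, PMA at 50 ng/mL, and ionomycin at 1 μg/mL for the final 5 hours, so both groups had CpG. There were 2 replicates of each, and no untreated B cells are among the listed samples. Barcode endings number the libraries 5, 6, 7, and 8, but no label says which culture a library came from, so each library is given on its own and the cultures are not compared.

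MHC class II molecules are heterodimers that show peptides from endocytosed proteins to CD4+ T cells, and B cells express them constitutively. H2-Aa and H2-Ab1 encode the α and β chains of I-A, and H2-Eb1 encodes the β chain of I-E, for which C57BL/6 mice lack a working α chain gene. Cd74, the invariant chain, escorts new dimers to the endosome. There the H2-DM heterodimer (H2-DMa with H2-DMb1 or H2-DMb2) exchanges the leftover Cd74 fragment for peptide, and H2-DO (H2-Oa with H2-Ob) restrains H2-DM in B cells. CIITA is the coactivator on which transcription of these genes depends. It does not bind DNA itself but joins RFX, CREB, and NF-Y proteins on a promoter module with an X box followed by a Y box, and it is silenced when B cells become plasma cells. Of the 10 genes, 8 lie on chromosome 17 between 34092340 and 34316674 of GRCm38, in the order H2-Oa, H2-DMa, H2-DMb2, H2-DMb1, H2-Ob, H2-Ab1, H2-Aa, and H2-Eb1. Ciita lies on chromosome 16 from 10480059 to 10528418.

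RefSeq promoter windows on GRCm38.p6, from 250 bases before to 50 bases after each gene's start, were searched for 7 of the members. Those left out were Ciita, H2-Ab1, and Cd74. The letters GCAAC, taken for the X box, were followed 10 to 40 bases later on the same strand by the letters GATTGG, taken for the Y box, in 4 of the 7. Over all 32851 windows of this length, 165 (0.502%) held that pair, while 35.2% held the X letters and 16.1% the Y letters alone, each searched on both strands. These letters were chosen after the members' windows had been read, and a match is a description of sequence, not a binding site. The 4 stretches are printed 5′ to 3′ on the gene's strand because they hold both sets of letters, with the X and Y letters in capitals.
H2-Aa, chr17:34287855-34287916, minus strand: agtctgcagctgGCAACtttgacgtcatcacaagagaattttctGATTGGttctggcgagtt
H2-Eb1, chr17:34305764-34305824, plus strand: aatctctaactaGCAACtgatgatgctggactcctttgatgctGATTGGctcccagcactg
H2-Oa, chr17:34092291-34092352, plus strand: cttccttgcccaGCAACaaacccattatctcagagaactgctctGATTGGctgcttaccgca
H2-Ob, chr17:34238806-34238864, plus strand: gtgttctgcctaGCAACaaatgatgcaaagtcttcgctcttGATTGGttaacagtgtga
The 2 boxes were 24 bases apart in H2-Ob, 26 in H2-Eb1, and 27 in both H2-Aa and H2-Oa, and the Y letters began 44 to 60 bases before the start. In the windows of H2-DMb1 and H2-DMb2 and in 1 of the 2 windows of H2-DMa, the Y letters were found without those X letters ahead of them. The other window of H2-DMa held neither.

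After removal of cells with under 1000 genes or with 10% or more mitochondrial UMIs (unique molecular identifiers, each counting 1 captured RNA), 18534 of 19920 barcodes remained, from 4003 to 5621 per library. The median cell had 8752 to 10355 UMIs, and a library had 44842982 to 63638158 UMIs in all. Cells were divided into Jchain-high cells with at least 5 Jchain UMIs (145), Mki67-positive cells with at least 1 Mki67 UMI and fewer Jchain UMIs (1609), and the other cells (16780). Jchain encodes the joining chain of secreted IgM and marks antibody-secreting cells, and Mki67 marks cycling cells. There were 24, 39, 54, and 28 Jchain-high cells in libraries 5 to 8, and 29 of the 145 also had an Mki67 UMI. Levels are given as CPM, the UMIs of a gene per 1000000 UMIs of all genes, summed over the cells of a library and class. Of the 8 B cell markers, all were detected, with a summed level in the other cells of 7457, 7788, 1526, and 1532 CPM in libraries 5 to 8, so the B cell label was met but its markers differed between libraries. Of 10 myeloid markers, 7 (Lyz2 and the C1q genes among them) had no UMI, and 5 of 9 T cell markers (Cd3e among them) had none; in the other cells the summed level was at most 0.528 CPM for the first list and 1.53 for the second. Dendritic cell markers summed to 54.9 to 142 CPM in the other cells, of which Ccr7, also made by B cells, was 54.2 to 137. No class used here lacked class II RNA, so the share due to free RNA was not measured. These sums are not a search for single cells of other types, which was not made. Hemoglobin and other erythroid markers summed to 4.32 and 3.55 CPM in libraries 5 and 6 and 225 and 290 in libraries 7 and 8, so they moved against the members, and their part in any difference was not tested. Only 29 barcode sequences occurred in more than 1 library. Intervals are exact 95% Poisson or binomial intervals and cover counting error only.

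Ciita differed more between libraries than any other member. In the other cells it was 73.6 CPM in library 5, 80.4 in library 6, 2.30 in library 7, and 2.88 in library 8, from 2727, 3351, 129, and 115 UMIs. The highest library was thus 34.9-fold over the lowest, and the intervals of libraries 7 (1.92 to 2.74) and 8 (2.38 to 3.46) overlapped, while those of the other neighbours in the order 7, 8, 5, 6 did not. A Ciita UMI was found in 43.9%, 47.6%, 2.07%, and 2.38% of these cells. When each cell was thinned to 5000 UMIs, leaving out 101 to 224 shallower cells per library, the shares were 29.2%, 31.8%, 1.05%, and 1.37%, so the order of the libraries was the same at equal depth.

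The 3 chain genes were also lower in libraries 7 and 8, though by less. H2-Aa was 1313, 1431, 489, and 496 CPM in the other cells of libraries 5 to 8, a range of 2.92-fold. H2-Ab1 was 1222, 1289, 307, and 335 CPM, a range of 4.20-fold. H2-Eb1 was 1963, 2047, 621, and 639 CPM, a range of 3.30-fold. For H2-Ab1 and H2-Eb1 all 4 intervals were separate, and for H2-Aa only those of libraries 7 and 8 overlapped. Within the libraries the chain genes were also spread unevenly over cells. The summed UMIs of the 3 genes per thinned cell had a median of 23 in library 5 (5th to 95th percentile 6 to 43), 24 in library 6 (7 to 45), 5 in library 7 (0 to 22), and 5 in library 8 (0 to 24). Cells with none of these UMIs made up 0.303%, 0.246%, 12.7%, and 12.5% of the other cells.

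Cd74 was the exception among the members. Its level in the other cells was 7235, 7565, 6092, and 5972 CPM, a range of only 1.27-fold, with all 4 intervals separate. Cd74 was found in at least 99.9% of thinned cells in each library. As a ratio of UMIs, Cd74 per UMI of the 3 chain genes was 1.61 and 1.59 in libraries 5 and 6 against 4.30 and 4.06 in libraries 7 and 8. In Mki67-positive cells that ratio was 1.46, 1.49, 2.54, and 2.51, and in Jchain-high cells it was 1.42, 1.42, 2.30, and 2.50, so libraries 7 and 8 were above libraries 5 and 6 in all 3 classes, by less than in the other cells. Since 3′ UMI counts of different genes may be captured with different efficiency, the ratio is read between libraries and classes and not as a molar excess.

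**Figure D1:**
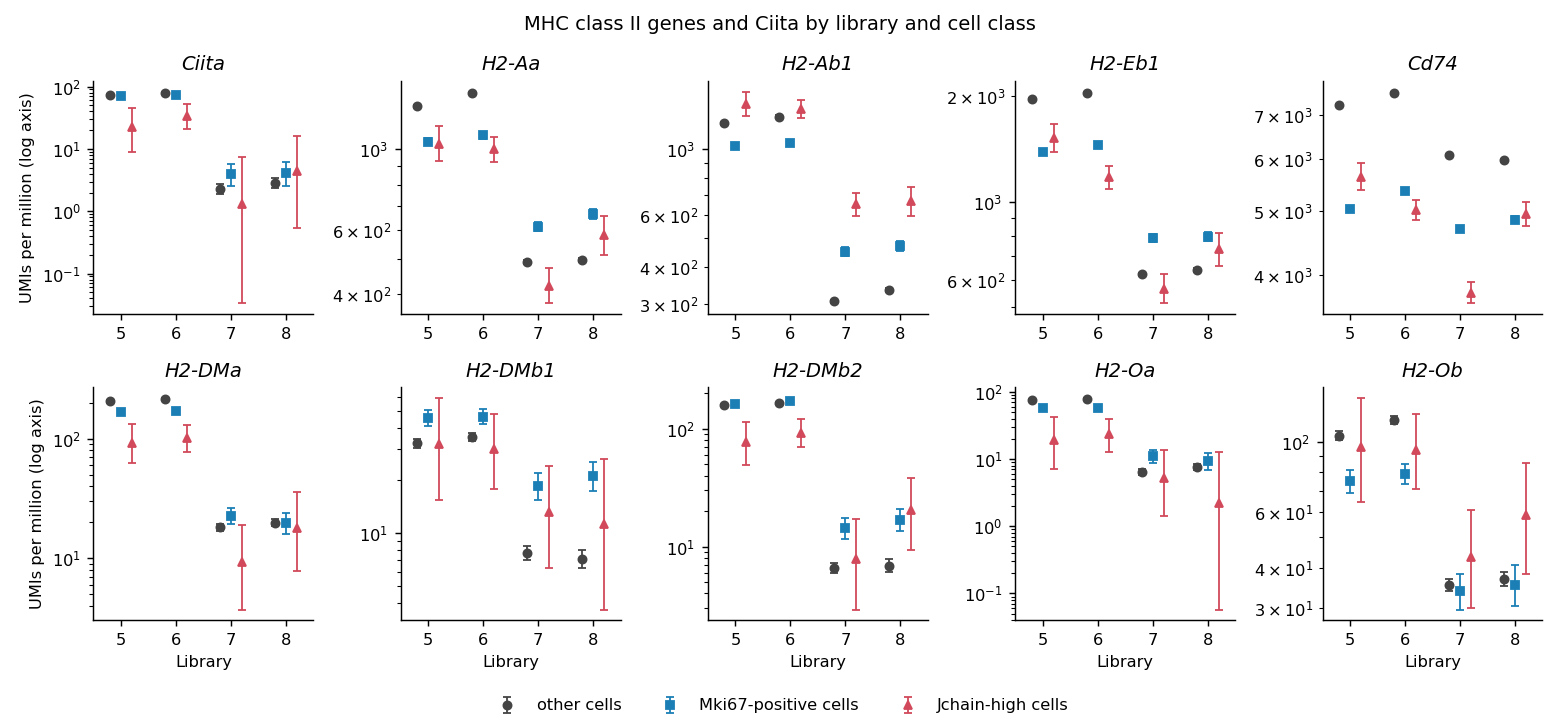
Level of each of the 10 genes in CPM (log axis, scaled per panel) by library, with points for other, Mki67-positive, and Jchain-high cells and bars for exact 95% Poisson intervals. In every panel but that of Cd74, libraries 7 and 8 sit well under libraries 5 and 6 in the other cells, most widely for Ciita at 2.30 and 2.88 against 73.6 and 80.4.

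**Figure D2:**
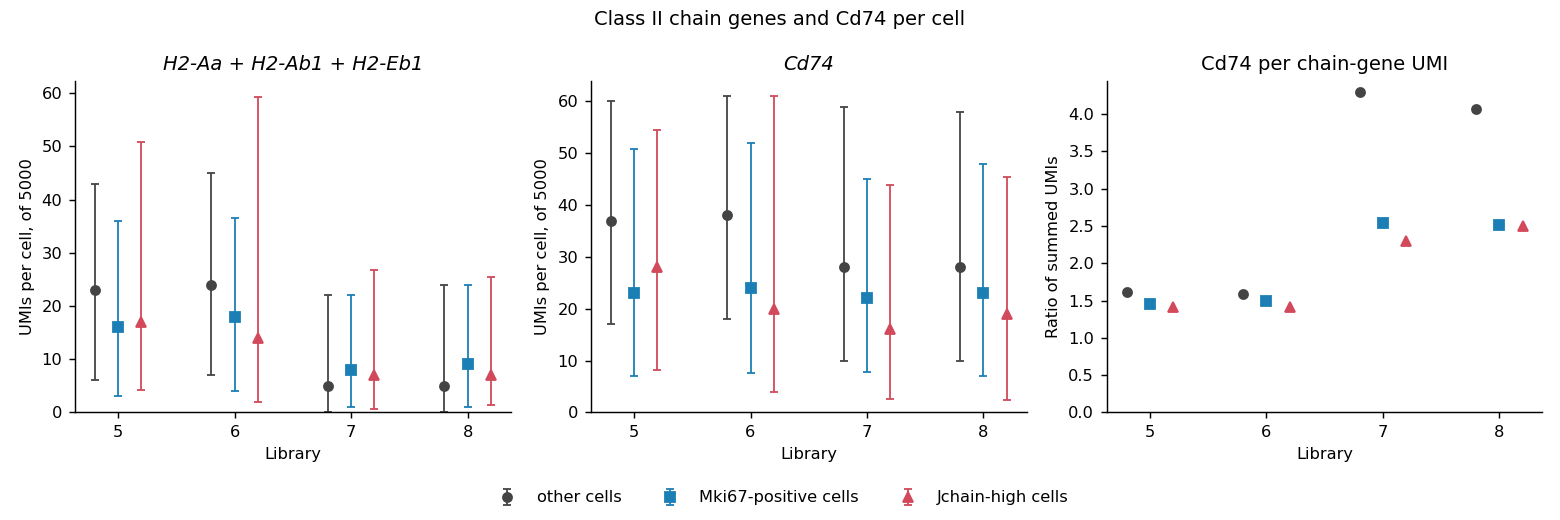
UMIs per cell of the 3 summed chain genes (left) and of Cd74 (middle) in cells thinned to 5000 UMIs, as the median with bars from the 5th to the 95th percentile, and the ratio of summed Cd74 to summed chain-gene UMIs (right), by library and class. The chain-gene median of the other cells is 23 and 24 in libraries 5 and 6 and 5 in libraries 7 and 8, whereas the Cd74 percentile bars overlap widely.

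The H2-DM genes, which encode the peptide exchanger, had wide ranges. H2-DMa was 205, 215, 18.1, and 19.9 CPM in the other cells, an 11.9-fold range, and was found in 61.4%, 64.4%, 8.28%, and 8.65% of thinned cells (79.0%, 81.5%, 16.0%, and 17.1% without thinning). H2-DMb2 was 159, 165, 6.57, and 6.89 CPM, and its 25.1-fold range was second among the members to that of Ciita. H2-DMb1 was 32.5, 35.4, 7.73, and 7.17 CPM, a 4.94-fold range. The 2 β chain genes thus differed in how far the libraries were apart. Reads that match both genes could make their counts uncertain, but such reads were not counted. Over the last 500 transcript bases 334 could be aligned, 89.2% of them identical, with a longest shared run of 34 bases. The H2-DO genes also differed from each other. H2-Oa was 76.0, 78.0, 6.37, and 7.65 CPM, a 12.2-fold range, and H2-Ob was 105, 117, 35.5, and 37.0 CPM, a 3.30-fold range. In both, the intervals of libraries 7 and 8 overlapped.

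By the rule that the highest library be at least 2-fold over the lowest in the other cells, 9 of the 10 members, all but Cd74, passed. The same rule was passed by 40.9% of 11926 genes tested, and by 34.7% of those at 20 CPM or more in the highest library, and the median log2 range was 2.19 for the members and 0.82 for all of these genes. In the same 9 members both of libraries 7 and 8 were at least 2-fold below both of libraries 5 and 6, as in 14.5% of genes tested (11.2% of those at 20 CPM or more), and no member was above, as in 14.1%. Other B cell genes also had wide ranges, and 7 of 8 B cell markers passed, among them Ms4a1 (50.1-fold) and Cd79b (7.83-fold). Scaling moved the median of 3706 genes at 20 CPM or more, which lay 0.29 (log2) higher in library 7 than in library 5, to -0.05 with TMM factors (trimmed mean of M values), and the same 9 members passed with either.

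The 6 cycling markers, of which Mki67 itself chose the cells, were all higher in Mki67-positive cells, and in those cells the chain genes differed from other cells in opposite directions by library. H2-Aa was 1049, 1092, 613, and 664 CPM in Mki67-positive cells of libraries 5 to 8, a log2 ratio to the other cells of -0.32, -0.39, 0.32, and 0.42. H2-Ab1 had log2 ratios of -0.25, -0.30, 0.56, and 0.50, and H2-Eb1 of -0.51, -0.50, 0.34, and 0.31. None of these 12 intervals included 0, and the signs held under the 3 other scalings tried. The chain genes thus lay closer together over the libraries in cycling cells, where H2-Aa ranged 1.78-fold, than in the other cells. Thinned Mki67-positive cells without a chain-gene UMI made up 1.04%, 0%, 3.54%, and 2.27% of their libraries' cells, beside 0.303%, 0.246%, 12.7%, and 12.5% of the other cells.

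Cd74 was lower in Mki67-positive cells in all 4 libraries, at 5040, 5358, 4702, and 4852 CPM (log2 ratio -0.52, -0.50, -0.37, and -0.30). H2-DMb1 was the member that was higher in all 4, at 45.3, 46.2, 18.5, and 21.1 CPM (log2 ratio 0.48, 0.38, 1.26, and 1.56). H2-DMb2 was higher in libraries 7 and 8 (log2 ratio 1.12, 0.78 to 1.44, and 1.29, 0.93 to 1.64) and within counting error of 0 in libraries 5 and 6, where its sign changed with the scaling. Ciita, at 71.0, 73.5, 3.93, and 4.12 CPM, had log2 ratios of -0.05, -0.13, 0.77, and 0.51, of which the intervals of libraries 5 and 8 included 0. The median of the 4 was 0.23, and it was -0.12 when 2 Mki67 UMIs were required. H2-Oa and H2-DMa were lower in libraries 5 and 6 (log2 ratio -0.46 to -0.28) and higher in library 7 (0.78 and 0.33), while in library 8 the intervals of both included 0. H2-Ob was lower in libraries 5 and 6 (-0.48 and -0.57), with intervals including 0 in the other two.

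No member was at least 2-fold lower in Mki67-positive cells of all 4 libraries, against 0.0179% of 11183 genes tested, and none was at least 2-fold higher, against 3.27% (4.14% of those at 20 CPM or more in either class). In all, 8, 8, 2, and 3 of the 10 members lay below 0 in libraries 5 to 8, beside 39.8%, 40.9%, 49.97%, and 49.6% of all genes tested. With TMM factors the members were 9, 9, 2, and 3, beside 61.4%, 62.0%, 50.1%, and 50.6% of all genes. The members' median log2 ratio, taken for each gene as the median of the 4 libraries, was -0.02, beside 0.04 for all genes. Mki67-positive cells were deeper, with a median of 15614 to 16743 UMIs against 8456 to 10108 in other cells, and the part of depth in these ratios was not tested beyond the use of shares of UMIs.

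**Figure D3:**
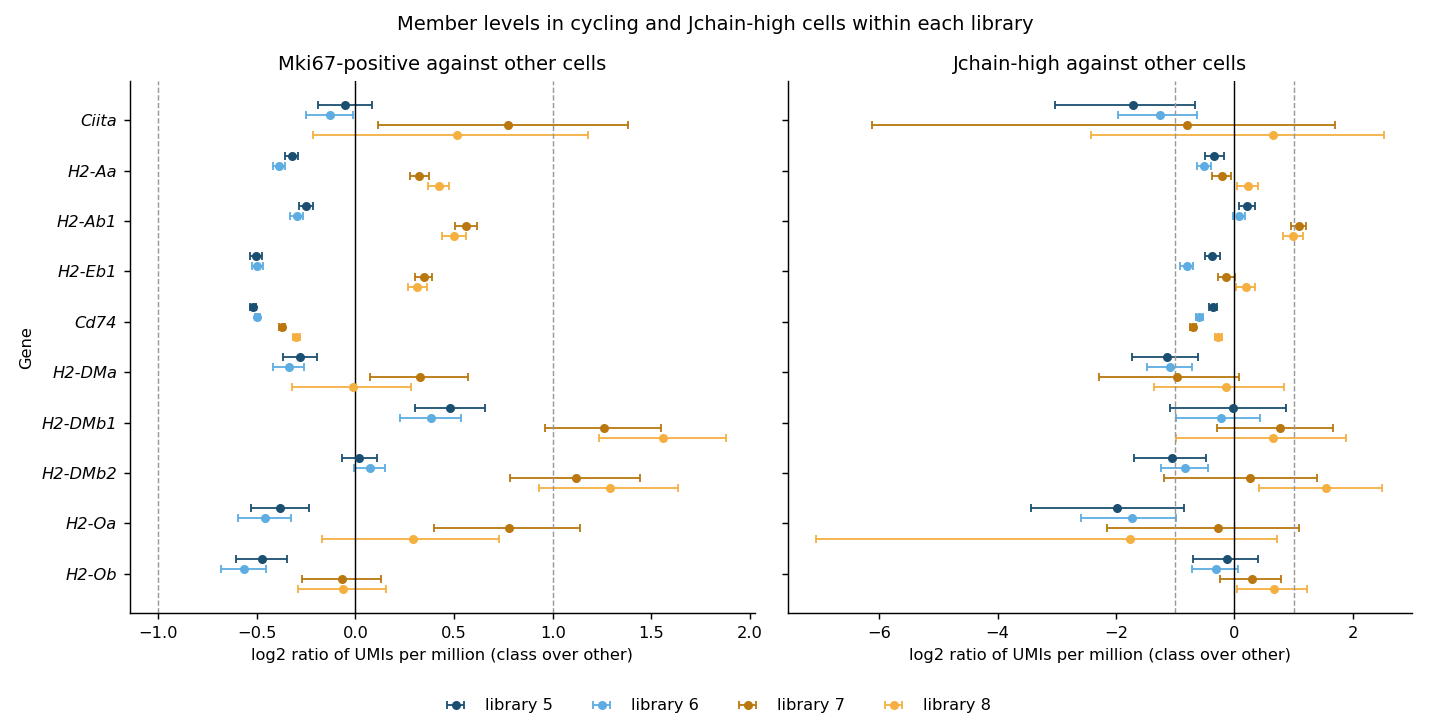
Log2 ratio of the CPM of each member in Mki67-positive cells (left) and Jchain-high cells (right) over the other cells of the same library, with exact 95% intervals. Dashed lines mark 2-fold. H2-Aa, H2-Ab1, and H2-Eb1 lie left of 0 in libraries 5 and 6 and right of it in libraries 7 and 8 in the left panel, and in the right panel Ciita, H2-DMa, and H2-Oa lie near or past 2-fold lower in libraries 5 and 6.

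Jchain-high cells had most of the tested markers of antibody-secreting cells. Of 9 plasma cell markers, 7 could be tested. Of these, 6 were at least 2-fold higher than in the other cells of all 4 libraries, against 1.59% of all genes tested. They were Jchain, used for the choice, Mzb1, Xbp1, Derl3, Txndc5, and Prdm1. Irf4 was tested and did not pass. Sdc1 was among those that could not be tested. In the other cells it had a 143-fold range, with libraries 7 and 8 above the rest. Immunoglobulin genes took 23.0%, 22.6%, 25.5%, and 15.9% of the UMIs of Jchain-high cells against 0.370% to 1.77% in the other cells. That share lowers the CPM of all other genes, and over 3706 genes the median log2 ratio was -0.53, -0.35, -0.47, and -0.24. Without mitochondrial, ribosomal protein, and immunoglobulin genes in the denominator it was -0.31, -0.18, -0.17, and -0.10.

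Ciita was lower in Jchain-high cells of libraries 5 and 6 by more than that. It was 22.4 and 33.7 CPM from 7 and 20 UMIs, a log2 ratio of -1.71 (-3.03 to -0.67) and -1.26 (-1.97 to -0.63). In libraries 7 and 8 it rested on 1 and 2 UMIs (1.32 and 4.51 CPM), with intervals from -6.12 to 1.70 and from -2.42 to 2.53, so that no difference was detectable at this depth. H2-Oa followed the same course, at 19.2 and 23.6 CPM in libraries 5 and 6 (log2 ratio -1.98 and -1.73) and 5.27 and 2.25 CPM from 4 and 1 UMIs in libraries 7 and 8. H2-DMa was 92.9, 101, 9.22, and 18.03 CPM (log2 ratio -1.14, -1.09, -0.97, and -0.14), with intervals including 0 in libraries 7 and 8. H2-DMb2 was lower in libraries 5 and 6 (-1.05 and -0.83) and higher in library 8 (1.56, 0.41 to 2.50, from 9 UMIs).

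The I-A and I-E chain genes and Cd74 did not have a deficit of the size of Ciita, H2-Oa, and H2-DMa in libraries 5 and 6. That of H2-Eb1 in library 6 (log2 ratio -0.80) was, however, close to that of H2-DMb2 there (-0.83). H2-Ab1 was 1425, 1366, 652, and 667 CPM in Jchain-high cells, a log2 ratio of 0.22, 0.08, 1.09, and 1.00, and only in library 6 did the interval include 0. The 8 B cell markers summed to 7494, 6853, 3869, and 3530 CPM in the same cells, against 7457, 7788, 1526, and 1532 CPM in the other cells. The 8 dendritic cell markers summed to 19.2, 50.5, 115, and 207 CPM against 129, 142, 54.9, and 57.7 CPM, mostly from Ccr7 (16.0, 40.4, 113, and 203 CPM in Jchain-high cells). Both sums were thus higher than in the other cells in libraries 7 and 8, where the H2-Ab1 ratio was largest, and their part in it was not tested. The B cell sum does not stand for each of its 8 markers. Their median log2 ratio, taken for each gene as the median of the 4 libraries, was -0.50, beside -0.14 for all genes. The 2 chains of I-A thus parted in these cells, since H2-Aa was 1038, 1001, 422, and 579 CPM (log2 ratio -0.34, -0.51, -0.22, and 0.22). H2-Eb1 had log2 ratios of -0.37, -0.80, -0.14, and 0.20, and Cd74 of -0.36, -0.59, -0.70, and -0.27. In library 7 the values of H2-Aa and H2-Eb1 turned to 0.05 and 0.13 with TMM factors, and to 0.08 and 0.16 without mitochondrial, ribosomal protein, and immunoglobulin genes in the denominator. The intervals of H2-DMb1, at 10, 18, 10, and 5 UMIs, included 0 in all 4 libraries, and those of H2-Ob did in all but library 8 (0.67, 0.05 to 1.22).

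No member was at least 2-fold lower in Jchain-high cells of all 4 libraries, against 0.492% of 10977 genes tested (0.859% of those at 20 CPM or more in either class), and none was at least 2-fold higher, against 1.59% (2.63%). Below 0 were 9, 9, 6, and 3 members in libraries 5 to 8, beside 71.8%, 64.3%, 69.1%, and 61.8% of all genes. With the narrower denominator just named the members below 0 were 7, 9, 3, and 2, beside 64.8%, 56.8%, 56.3%, and 54.4% of all genes. The count of members called was 1 in place of 0 when the cells with the most UMIs were left out (H2-DMa), when per-cell CPM were averaged (Ciita), and without library 7 (H2-Oa), each time as lower. In the same order, 207 of 10866, 207 of 10977, and 98 of 11010 genes tested were called lower. The main setting called 54 of 10977 lower. The Ciita call rests on 1 and 2 UMIs in Jchain-high cells of libraries 7 and 8, and the H2-Oa call on 1 UMI in library 8. With 24 to 54 cells per library, these values cannot tell a lower level in every cell from a mixture of cells.

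Within the Jchain-high cells, those with 20 or more Jchain UMIs had less H2-Aa and Cd74 RNA than those with 5 to 19, though only 7 to 11 cells per library made up the second set. H2-Aa was 705 against 1863 CPM in library 5, 868 against 1610 in library 6, 408 against 558 in library 7, and 508 against 718 in library 8. Cd74 was 4559 against 8335, 4517 against 7348, 3647 against 4903, and 4749 against 5348 CPM. The order was the same in all 4 libraries for both genes. However, the intervals overlapped for H2-Aa in library 7 (362 to 458 and 396 to 762) and in library 8, and for Cd74 in library 8. This order did not hold for every member, since H2-Ob was 105 against 46.8 CPM in library 6, also with overlapping intervals. Ighm, the immunoglobulin heavy chain gene, was 61731 against 32200 CPM in library 5, and its part in the difference was not tested. Among cells with 2 to 4 Jchain UMIs, just under the limit and numbering 1, 8, 5, and 5, H2-Aa was 1470, 1596, 1099, and 2028 CPM.

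Over single cells, Ciita was correlated weakly with the other members, and with H2-Aa, H2-Ab1, H2-Eb1, Cd74, and H2-DMa more in libraries 5 and 6 than in libraries 7 and 8. The measure was Pearson's r of log2(UMIs + 1) over the other cells of a library, each thinned to 5000 UMIs. In library 5 it was 0.138 for H2-Eb1, 0.128 for H2-Aa, 0.106 for H2-Ab1, 0.105 for H2-DMa, and 0.090 for Cd74. In library 6 it was 0.136, 0.115, 0.081, 0.083, and 0.090 for the same genes. H2-Eb1 had the highest r with Ciita of 3706 genes compared in both of these libraries, where the 5th to 95th percentile of r over all genes was -0.043 to 0.035 and -0.041 to 0.032. For H2-Ob, H2-DMb2, H2-Oa, and H2-DMb1 r was between 0.023 and 0.068. Spearman's rho was close to r, at 0.141 and 0.130 for H2-Eb1. These values are small, and cells share their library and sequencing, so they are given as a description. A Ciita UMI was found in 29.2% and 31.8% of the thinned cells of libraries 5 and 6, but in 1.05% and 1.37% of those of libraries 7 and 8. The part of this difference in the lower r of libraries 7 and 8 was not tested, so r is not read as a strength of coupling between libraries.

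In library 7 only 52 of 4940 thinned cells had a Ciita UMI, and r was between -0.018 and 0.023 for 8 members and 0.058 for H2-DMb2. In library 8, with 48 of 3513 cells, r was 0.135 for H2-DMb2, 0.102 for H2-DMb1, 0.068 for H2-Ob, and 0.064 for H2-Aa. In counts this sparse, a few cells carry such a value. The r of H2-DMb2 was above that of all 3706 genes compared, which had at least 20 CPM in every library. H2-DMa, H2-DMb1, H2-DMb2, and H2-Oa were below 20 CPM in libraries 7 and 8, so they are not among those genes. Levels were also split by the number of Ciita UMIs in a cell, on the CPM scale. In library 5, H2-Aa was 1294 CPM in cells with 0 Ciita UMIs, 1480 with 1, and 1636 with 2 or more, and in library 6 it was 1407, 1579, and 1630. H2-DMa in library 5 was 200.3, 244, and 259 CPM. In library 8, with 3465, 39, and 9 cells, H2-Aa was 491, 887, and 1067 CPM. There H2-DMa was 18.8 CPM in cells with 0 Ciita UMIs and 71.8 in those with 1, from 14 UMIs. The 9 cells with 2 or more had no H2-DMa UMI, with an interval of 0 to 82.0 CPM. In library 7, H2-Aa was 483 CPM with 0 and 498 with 1, and H2-DMa was 18.1 and 16.3. The intervals overlapped for both genes.

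**Figure D4:**
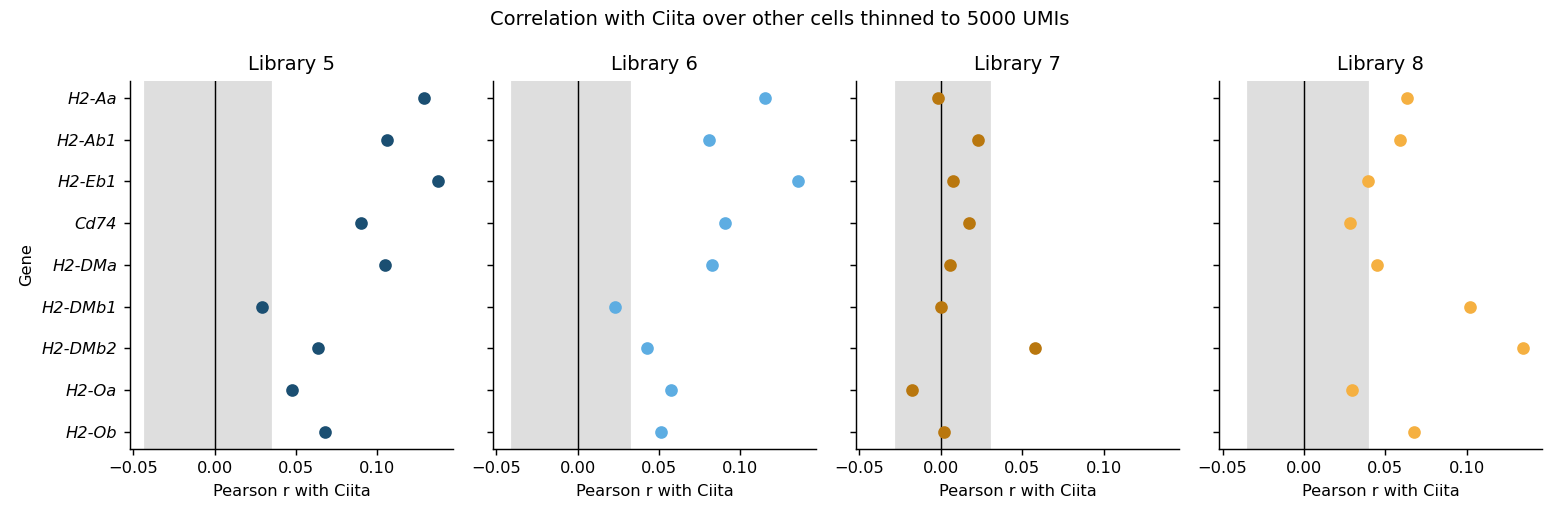
Pearson's r with Ciita of the 9 other members over other cells thinned to 5000 UMIs, in a panel per library. The grey band spans the 5th to 95th percentile of r over 3706 genes of at least 20 CPM in each library. H2-DMa, H2-DMb1, H2-DMb2, and H2-Oa are not among these genes. In libraries 5 and 6, H2-Eb1 and H2-Aa lie farthest from the band, and in library 7 only H2-DMb2 lies beyond it.

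The chain genes were correlated with each other far more than with Ciita. Over thinned other cells of libraries 5 to 8, r between H2-Aa and H2-Eb1 was 0.64, 0.63, 0.67, and 0.69, and r between H2-Aa and H2-Ab1 was 0.56, 0.55, 0.57, and 0.58. These values were alike in all libraries although the levels were not. Cd74 was different, since its r with H2-Eb1 was 0.63, 0.61, 0.41, and 0.44 and its r with H2-Ab1 was 0.54, 0.53, 0.32, and 0.34. Outside the chain genes, the genes whose products pair were only weakly correlated. The r of H2-Oa with H2-Ob was at most 0.063, that of H2-DMa with H2-DMb2 was 0.041 to 0.128, and that of H2-DMa with H2-DMb1 was 0.036 to 0.062. These genes had lower counts than the chain genes, and the part of that in the low r was not tested. The median r over all pairs of members was 0.128, 0.128, 0.041, and 0.068.

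Il10, the cytokine by which Bregs are often recognized, was used to order the other cells within each library. Cells with 3 or more Il10 UMIs numbered 58, 38, 2227, and 1571. Ciita was lower in such cells than in cells with no Il10 UMI in libraries 5, 7, and 8. It was 29.3 against 75.9 CPM in library 5, 1.11 against 5.04 in library 7, and 1.23 against 6.65 in library 8. In library 6 it was 63.5 CPM, from 36 UMIs, against 83.0, and the intervals (44.5 to 87.9 and 80.1 to 86.0) overlapped. H2-DMa was lower in libraries 5 to 8, at 116 against 213, 104 against 221, 16.2 against 21.6, and 16.6 against 26.4 CPM. H2-Eb1 went down with Il10 in libraries 5 (1561 against 2008 CPM) and 6 (1460.5 against 2089.7) and up in libraries 7 (659 against 552) and 8 (664 against 592). H2-Aa did likewise, with 1045 against 1342, 1092 against 1457, 510 against 446, and 516 against 480 CPM. H2-Ab1 was lower in libraries 5 (999 against 1250) and 6 (1067 against 1312). In libraries 7 (307 against 301) and 8 (334 against 346), however, its intervals overlapped. Cd74 had the same 2 directions as H2-Eb1, with 6593 against 7330 CPM in library 5 and 6266 against 5820 in library 7. Cells with more Il10 UMIs had more UMIs in all (a median of 12333 against 8328 in library 5 and 10880 against 9388 in library 7), and the part of depth was not tested.

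**Figure D5:**
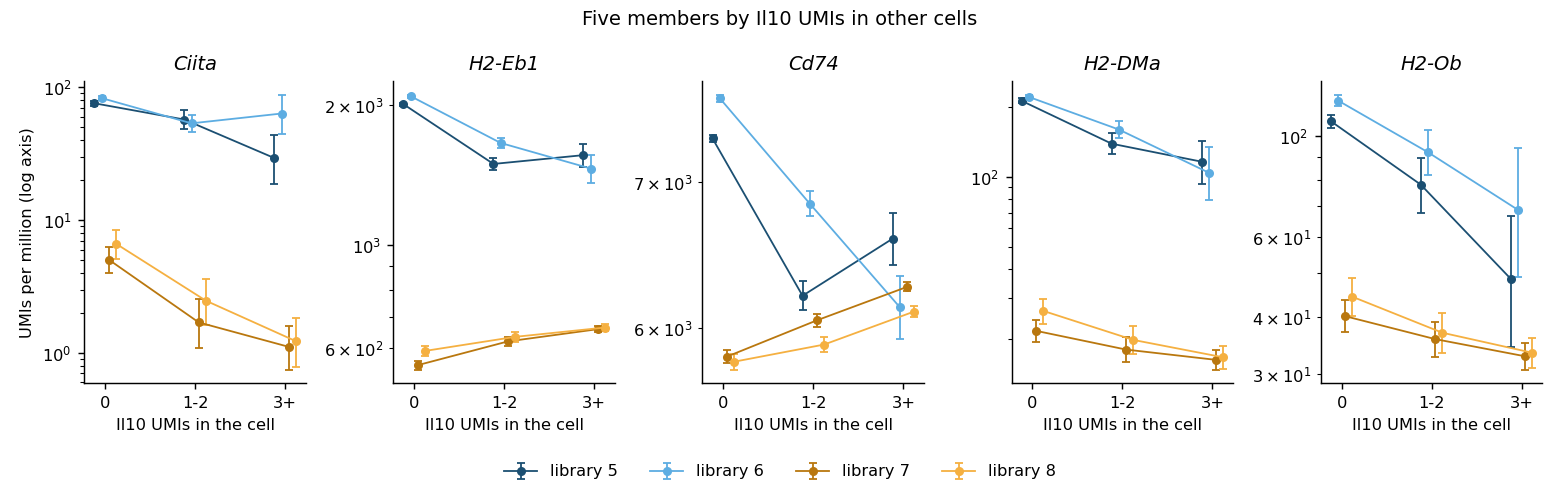
Levels of Ciita, H2-Eb1, Cd74, H2-DMa, and H2-Ob in CPM (log axis, scaled per panel) in other cells with 0, 1 to 2, and 3 or more Il10 UMIs, a line per library, with exact 95% Poisson intervals. Ciita, H2-DMa, and H2-Ob are lower at 3 or more Il10 UMIs than at 0 in all 4 libraries, whereas H2-Eb1 and Cd74 are lower in libraries 5 and 6 and higher in libraries 7 and 8. For Ciita in library 6, the intervals at 0 and at 3 or more Il10 UMIs overlap.

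Genes that act on Ciita or its promoter module were read from lists. Of 7 factors of the class II promoter, 2 passed the 2-fold range over libraries, which 40.9% of all genes tested passed: Rfx5, the DNA-binding subunit of RFX, at 20.4, 20.2, 7.98, and 7.47 CPM, and Rfxank, at 10.4, 10.6, 4.80, and 4.54 CPM. Rfxap, Creb1, and the 3 NF-Y subunits did not, with ranges of 1.20- to 1.94-fold. Of 10 regulators of Ciita, 6 passed, beside the same 40.9%. Pax5, the B cell identity factor, was 172, 183, 62.2, and 61.6 CPM in the other cells, and Irf8 was 524, 548, 204, and 198 CPM. Irf4, which drives plasma cell differentiation, had the opposite order, at 3.103, 3.58, 43.9, and 40.9 CPM. Irf1 and Irf2 were lowest in libraries 7 and 8 as Pax5 was, with ranges of 3.22- and 2.36-fold. Prdm1, which encodes the Ciita repressor Blimp-1, was 10.8, 12.6, 0.875, and 0.852 CPM. Spi1, Bcl6, and Socs1 had ranges of 1.13- to 1.54-fold.

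In Jchain-high cells Prdm1 was at least 2-fold higher in all 4 libraries, at 170, 153, 47.4, and 45.1 CPM, and Socs1, an inhibitor of cytokine signaling, was at least 2-fold lower in all 4. No other gene of the regulator list and none of the promoter factors was called there, and none of either list was called in Mki67-positive cells. Irf4 was 240.2 and 200.2 CPM in Jchain-high cells of libraries 5 and 6 but 47.4 and 54.1 in libraries 7 and 8, close to the level of the other cells there. Of 7 genes for the turnover of class II proteins that could be tested, 4 passed the range over libraries, beside 40.9% of all genes tested. March1, the ubiquitin ligase that removes class II from the surface, was 50.1, 54.7, 13.2, and 12.2 CPM, Ctss was 192, 207, 103, and 98.1, and Ctsl (2.81-fold) and March8 (3.09-fold, under 1 CPM throughout) were the others. Cd83, which protects class II from March1, was 518, 535, 503, and 482 CPM, a range of 1.11-fold. H2-Eb2, the further class II locus that could be tested, was 6.96, 7.06, 1.12, and 1.10 CPM.

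The 5 genes, members aside, with the highest mean r with Ciita over the 4 libraries were Cd79b (0.099), Rhoh (0.073), Shisa5 (0.068), Plac8 (0.067), and Coro1a (0.067), among 3706 genes compared. Cd79b encodes a signaling chain of the B cell receptor, and its mean r was above that of H2-Eb1 (0.080), the member with the highest. In libraries 5 and 6, however, H2-Eb1 was above Cd79b (0.138 and 0.136 against 0.086 and 0.101). The order of the means came from libraries 7 and 8 (0.007 and 0.040 against 0.087 and 0.123). There only 52 and 48 thinned cells had a Ciita UMI, so the mean is no ranking of coupling with Ciita. The 5 genes whose log2 CPM over the 12 groups of library and class was most like the median of H2-Aa, H2-Ab1, H2-Eb1, and Cd74 were Borcs8, Myl12b, Arl5c, Rhoh, and Sgk3, with r of 0.967 to 0.971 among 4674 genes. Ciita, which is no part of that median, reached 0.950 against it. H2-Eb1 reached 0.982, but it is among the genes that make the median, so its r is set in part by construction. Cd74 reached 0.518. It had the highest level of these genes in every group, so its own values never entered the middle. The 12 groups come from 4 libraries and are not independent, so these are likenesses of pattern only.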

How the data were processed

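Single-cell RNA-Seq of cultured splenic B cells (10x Genomics 3′ chemistry, version 3) was analyzed from the deposited matrix. Per the labels and the study's methods, the authors used bcl2fastq and Cell Ranger 3.1.0 with mouse mm10 and Ensembl 93 genes, and combined libraries with aggr, which evens out depth. The deposited values are whole UMI counts, not normalized further. There are 35989 matrix columns for 19920 listed barcodes. The last 19920 columns were taken as the barcodes in order by a rule set beforehand, and the mean profile along them was checked afterwards. The largest shift of mean profile among them fell at column 25835, where library 7 then starts. At the starts of libraries 6 and 8 the shift was at percentiles 72.28 and 96.15 of these columns. The check thus rests on the start of library 7, and the other borders follow from the order of the barcodes. The first 16069 columns were not used.

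Cells with at least 1000 genes and under 10% mitochondrial UMIs were kept, the limits of the study. No doublet caller was run, and leaving out the 5% of cells with the most UMIs was tried instead. Counts were summed per library and class. Since no label ties a library to a culture, libraries were not taken as replicates, no test over them was run, and a rule of size stood in: at least 2-fold the same way in all 4 libraries, for genes with at least 10 UMIs over both classes in each. Ratios have exact conditional 95% intervals. For correlations, cells were thinned at random to 5000 UMIs. The call rule was tested on simulated data, but the outcome is not given here and no support is drawn from it. The named genes were all members, the genes of the lists, and the 5 genes most like Ciita per cell or most like the class II genes over groups (with 0.5 UMI added), among genes of at least 20 CPM. The members and lists were chosen with earlier results of these data known. Of the lists, Ifi30, H2-Ea, H2-Ea-ps, and H2-Bl were not matched to the feature table. The values of 1 further gene of the Ciita regulator list are not reported here. Alternatives were other limits for cells and classes, denominators, TMM factors (edgeR 4.0.16 in R 4.3.3), pooling, thinning, low-count filters, and each library left out, of which the filter at 20 CPM was chosen after seeing the data. Python 3.11.15, NumPy 2.4.6, SciPy 1.17.1, and pandas 2.3.3 were used. Gene positions are from GENCODE vM21 on GRCm38, and promoter windows are from RefSeq on GRCm38.p6.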

Additional observations from a re-analysis of the deposited data

How the results depend on the processing

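The 9 members with a 2-fold range over libraries and the absence of a member called in Mki67-positive cells held in every setting run for them. For Jchain-high cells, the count of members called was 0, and it became 1 without the 5% of cells with the most UMIs, 1 with the mean of per-cell CPM, and 0 to 1 when each library was left out in turn. The genes called lower there, 54 of all tested, were 207 without the deepest cells, 207 with the mean of per-cell CPM, 34 with TMM factors, 34 at 20 CPM or more, 24 with the narrower denominator, and 98 to 197 with a library left out (197 without library 8). Genes past the range over libraries were 4880, and 9743 with no filter on low counts and 1850 at 20 CPM or more. Genes called higher in Mki67-positive cells were 366, and 174 at 20 CPM or more, and those called lower were 2, and 0 to 11 under alternatives. Genes called higher in Jchain-high cells were 175, and 104 at 20 CPM or more. The cause was not tested, apart from the number of genes tested, which differs by construction under the filters. The median r with Ciita (0.060) and between members (0.082) kept their sign and size under the thinning alternatives. Of the values of single members under alternatives, 270 stayed within a limit and 120 moved beyond it. The limit was counting error for class ratios and a fixed log2 distance for the range over libraries. The count of 0 reversed calls was fixed beforehand. No member was called in either class comparison, and a range over libraries cannot change sign. No paired analysis was possible because the replicate numbers in the labels are tied to no library. Class ratios were taken within each library, and no test blocked on library was run. Low counts limit Ciita, H2-Oa, and the H2-DM genes in Jchain-high cells and Ciita in libraries 7 and 8.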

Other observations

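The libraries, which the labels put in no group, fell into 2 pairs for the class II genes. In the other cells, both of libraries 7 and 8 were at least 2-fold below both of libraries 5 and 6 for 9 of the 10 members, all but Cd74 (7235 and 7565 against 6092 and 5972 CPM). The pairs were set by the data, so the difference was not tested. Of 7 B cell markers with the same split, Ms4a1 (1533, 1561, 31.2, and 37.2 CPM) and Fcer2a (22.4, 20.4, 0.339, and 0.401 CPM) were as far apart as Ciita or farther. Of the regulators of Ciita, 5 of 10 were at least 2-fold below in libraries 7 and 8 (Pax5, Irf8, Irf1, Irf2, and Prdm1) and 1 above (Irf4), and of the promoter factors 2 of 7 were below (Rfx5 and Rfxank). Of all 11926 genes tested, 14.5% were at least 2-fold below in this way and 14.1% above.

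Pooled over the 39 Jchain-high cells of library 6, 6 cycling markers summed to 555 CPM, against 41.6, 93.6, and 81.1 in those of libraries 5, 7, and 8. How many cells carried this sum was not counted, and its part in the Jchain-high ratios of library 6 was not tested.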
